A study of Mus musculus with 12 samples.

Results

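The arms of miR-21a are the mature small RNAs cut from the left (5p) and right (3p) side of the mouse miR-21a hairpin. They were taken by name, mmu-miR-21a-5p and mmu-miR-21a-3p, and are 2 of the 932 rows of a small RNA sequencing table. The table holds 12 libraries from mitochondria isolated from mouse hearts, 6 from db/db mice and 6 from wild-type (WT) mice. db/db mice carry a loss-of-function mutation of the leptin receptor and develop obesity and type 2 diabetes. The labels give neither age, sex, strain nor treatment, and they number the samples of each genotype 1 to 6 without saying whether different animals were used. The p-values therefore cover the spread between samples alone, and that spread may be technical.

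An miRNA hairpin is cut by Drosha and Dicer into a short duplex, and an Argonaute protein keeps mainly the guide strand, while the other strand is usually degraded. Bases 2 to 8 of the guide, the seed, pair with target mRNAs. miR-21 is known as a stress-responsive miRNA that is raised in injured and failing hearts, chiefly in cardiac fibroblasts. Its known targets include Pdcd4, an inhibitor of translation, and Spry1, an inhibitor of growth factor signalling, and in rats it has been described inside mitochondria, where it favours translation of mt-Cytb. The 3p arm, long taken for a by-product, has been described as a cargo of fibroblast exosomes that acts on cardiomyocytes.

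Mature sequences from RefSeq (GRCm38.p6) are shown because the arms carry different seeds, and because 2 relatives of miR-21a in the mouse genome share much of the 5p arm. Capitals mark the seed, and each sequence runs 5′ to 3′.
miR-21a-5p: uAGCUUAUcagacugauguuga
miR-21a-3p: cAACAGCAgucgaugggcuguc
miR-21c: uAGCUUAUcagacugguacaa
miR-21b: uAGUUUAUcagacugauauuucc

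The arms are 22 bases each, with a GC content of 36.4% for 5p and 59.1% for 3p. Of the mature mouse miRNAs in that RefSeq table, 1 shares the 5p seed, miR-21c, and 0 share the 3p seed. miR-21c is the same as miR-21a-5p over its first 15 bases and differs by A16G, G18A, U19C, U20A and G21A, counted from 1 at the 5′ end of miR-21a-5p. miR-21b differs within the seed, by C4U, and further on by G18A, G21U and A22C. Neither relative was analysed here, and short reads ending before base 16 would not tell miR-21a-5p from miR-21c.

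Both arms come from a hairpin of 92 bases on chromosome 11, minus strand. In a GRCm38 annotation it lies in exon 12 of Vmp1-201, inside the untranslated part that follows the coding sequence. Vmp1 encodes a membrane protein of the endoplasmic reticulum needed for autophagy. In the structure of lowest predicted energy, -46.2 kcal/mol by RNAfold, 19 of the 22 bases of 5p were paired with 3p bases. The 5p arm begins with U and the 3p arm with C. Argonaute is known to favour strands that begin with U or A. Among 116 measured hairpins with both arms matched to a sequence, 52.6% of the more abundant arms and 25.9% of the less abundant arms began with U. For A the shares were 25.9% of the more abundant and 29.3% of the less abundant arms.

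The 5p arm was an abundant miRNA of these preparations, and its level was lower on average in db/db libraries. Values are in RPM, the reads of a miRNA per 1000000 listed reads of its library, with no length term, which suits miRNAs of nearly equal length. miR-21a-5p stood at 2591, 2614, 3514, 3947, 5072 and 3152 RPM in db/db libraries 1 to 6, in that order. In WT libraries 1 to 6 it stood at 3673, 4246, 4405, 4657, 5611 and 5375 RPM. The genotypes overlapped: 4 db/db libraries lay below the lowest WT library, while db/db library 5 lay above 4 of the WT libraries.

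The mean of miR-21a-5p was 3482 ± 938 RPM in db/db and 4661 ± 725 RPM in WT libraries (SD, n = 6 each), 25.3% lower in db/db. The log2 difference of db/db minus WT was -0.45 ± 0.15 (SE; limma adjusted p = 0.198 over 646 rows, unadjusted p = 0.00398), so it did not pass the threshold of 0.05 on the adjusted p. Taken alone, its RPM differed between the genotypes at p = 0.0368 (exact permutation test over libraries, two-sided, not adjusted for other miRNAs). By unadjusted p it was 13th of the 646 rows, but without a trend of variance on abundance its unadjusted limma p was 0.0765. Of the 2 arms 0 passed the adjusted threshold, against 0.155% of all rows. At an unadjusted p under 0.05 and lower in db/db there was 1 of the 2 arms, against 4.64% of all rows. Among the 147 rows that averaged 100 RPM or more, as miR-21a-5p did, 33 had an unadjusted p under 0.05 in either direction. The recovered reads gave -0.38 by edgeR (adjusted p = 0.135; 0.464% of rows called) and -0.35 ± 0.18 by DESeq2 (SE; adjusted p = 0.256; 4.71% of 170 rows called). In a bulk preparation, fewer cells of a type and less of the miRNA per cell, among other causes, cannot be told apart. The cause of the lower mean was not tested.

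**Figure D1:**
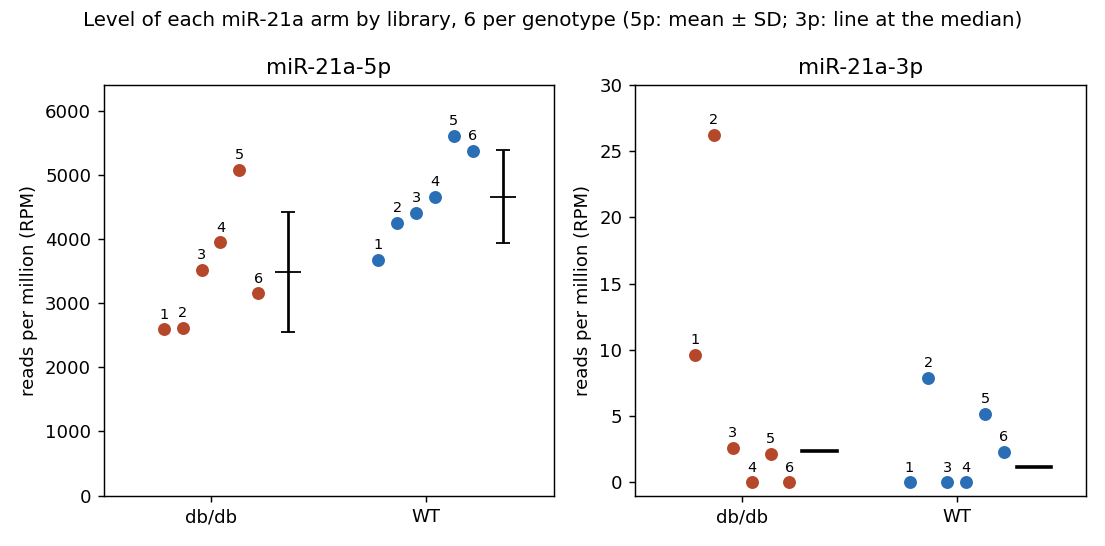
Level of miR-21a-5p (left) and miR-21a-3p (right) in RPM for each library, labelled by its sample number, with db/db libraries left of WT libraries in each panel. For 5p, 4 db/db libraries lie below the lowest WT library at 3673 RPM, and for 3p the values run from 0 to 26.3 RPM with 5 of 12 libraries at 0.

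Counting error was small beside the spread between libraries for 5p. Its reads ranged from 1301 in db/db library 6 to 7010 in db/db library 5 and, in WT, from 2408 in library 1 to 5402 in library 5. The exact 95% Poisson interval of the smallest count was 1231 to 1374 reads. The coefficient of variation within a genotype was 20.6% for miR-21a-5p, against a median of 21.4% over the 147 rows that averaged 100 RPM or more. It was 27.0% in db/db and 15.6% in WT libraries. Library 5 was both the highest and the deepest of the db/db libraries, and without it the log2 difference was -0.56 ± 0.15 (SE; limma adjusted p = 0.0276). WT library 5 was likewise the highest and the deepest of the WT libraries, and without it the log2 difference was -0.39 ± 0.15 (SE; limma adjusted p = 0.476). Of the 12 fits that left out a library, 1 passed.

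By sample number the means of miR-21a-5p were higher in 4 to 6 than in 1 to 3. In libraries 4 to 6 it averaged 4057 ± 965 RPM in db/db and 5215 ± 497 RPM in WT (SD, n = 3 each). In libraries 1 to 3 it averaged 2906 ± 527 RPM in db/db and 4108 ± 385 RPM in WT (SD, n = 3 each). Every db/db library was below the WT library of the same number, but the labels do not say that a number marks anything shared. This grouping is no named batch and was known from earlier results. The difference of numbers 4 to 6 minus 1 to 3 was 0.41 ± 0.13 with genotype in the model and did not pass (log2, SE; limma adjusted p = 0.0515). Over all 646 rows 17 passed for that difference, against 10 for genotype in the same model and 1 for genotype without the grouping. With that grouping as a factor the genotype difference was -0.45 ± 0.13 (SE) and passed (limma adjusted p = 0.0477; 1.55% of rows called). Within numbers 4 to 6 the log2 difference of db/db minus WT was -0.38 ± 0.20 (SE; limma adjusted p = 0.770), and within 1 to 3 it was -0.51 ± 0.15 (SE; limma adjusted p = 0.0968). These genotype differences did not themselves differ past the threshold (0.12 ± 0.26, log2, SE; limma adjusted p = 0.975).

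In abundance miR-21a-5p held place 37 of the 932 rows by mean RPM, and between place 28 and place 47 in single libraries. Next above it were let-7b-5p at 4381 ± 1613 RPM in db/db and 4231 ± 1169 RPM in WT libraries, and let-7i-5p at 4328 ± 672 RPM in db/db and 3925 ± 906 RPM in WT libraries. let-7 miRNAs restrain growth in differentiated cells. Next below were miR-16-5p, a brake on the cell cycle, at 3635 ± 571 RPM in db/db and 4328 ± 698 RPM in WT libraries, and let-7d-5p at 4354 ± 631 RPM in db/db and 3522 ± 788 RPM in WT libraries (SD, n = 6 each). In each genotype the range of the mean ± SD of these 4 overlapped that of miR-21a-5p, so their order lies within the spread between libraries. None of these 4 passed (limma adjusted p from 0.505 to 0.961).

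Across the 12 libraries miR-21a-5p ran closest to miR-143-3p, which is enriched in smooth muscle cells. Pearson's r on the log2(RPM + 1) scale was 0.96 over the 12 libraries, 0.95 within db/db and 0.96 within WT. miR-143-3p was the nearest of 145 named miRNAs averaging 100 RPM or more, whose median r was 0.07. It stood at 5.64 to 7.08 times the level of miR-21a-5p in db/db libraries and at 5.71 to 6.62 times in WT libraries. Next were miR-23a-3p (r = 0.91), of the miR-23a, miR-27a and miR-24 cluster, miR-22-3p (r = 0.91), abundant in muscle, miR-195a-5p (r = 0.87), of the miR-15 family, and miR-499-5p (r = 0.87), encoded in a myosin gene intron. The set was chosen for likeness, shares each library's total, and carries the grouping by number, so these values are descriptions. They cover miRNAs known from smooth muscle as well as from cardiomyocytes.

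Their log2 differences of db/db minus WT were -0.48 ± 0.13 for miR-143-3p (SE; limma adjusted p = 0.0869), -0.23 ± 0.12 for miR-23a-3p (0.575), -0.56 ± 0.13 for miR-22-3p (0.0466), -0.62 ± 0.18 for miR-195a-5p (0.109) and -0.26 ± 0.16 for miR-499-5p (0.717). miR-22-3p was the 1 row called among all 646 (0 higher and 1 lower in db/db). After median-of-ratios or TMM scaling its call was lost, and 2 rows higher and 0 lower in db/db were called. The lowest r with miR-21a-5p, -0.85, was that of miR-92a-3p, an inhibitor of vessel growth, which was looked up after the values were seen.

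**Figure D2:**
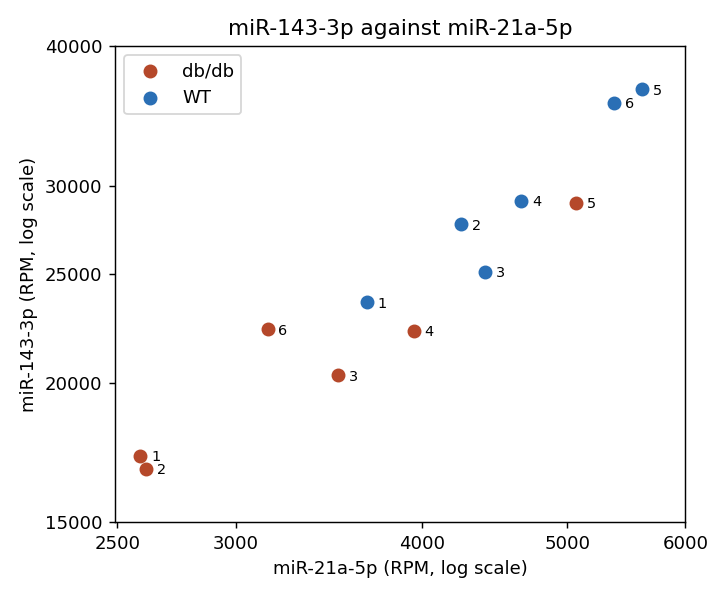
Level of miR-143-3p against miR-21a-5p in RPM on log axes, one point per library with its sample number, db/db in red and WT in blue. The points of both genotypes fall along a common line (r = 0.96 over 12 libraries), with db/db libraries 1 and 2 at the low end and WT libraries 5 and 6 at the high end.

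Markers of the cell types that could carry miR-21a were read beside these values. The libraries are from isolated mitochondria, so marker levels here need not follow the numbers of cells in the heart. All 4 smooth muscle members, the arms of miR-143 and miR-145a, had negative differences, with a median of -0.36 (log2, db/db minus WT) against -0.04 over all rows, and 0 passed. Arms of the same hairpin are not independent, so these are not 4 separate markers. Their summed level ran from 21295 to 35439 RPM in db/db libraries, with a median of 26448, and from 30743 to 44199 RPM in WT libraries, with a median of 34944. Most of that sum came from miR-143-3p, at a mean of 25457 RPM over all libraries, which had been picked above for its likeness to miR-21a-5p. Of the 6 fibroblast members 3 were negative and 3 positive (median -0.13), and 0 passed. Their summed level was 6335 to 7778 RPM in db/db and 6076 to 8655 RPM in WT libraries. The most abundant were miR-199a-3p (0.06 ± 0.14), miR-199b-3p (0.06 ± 0.14), miR-199a-5p (-0.36 ± 0.18) and miR-214-3p (0.45 ± 0.22; log2 difference, SE; limma adjusted p from 0.543 to 0.883). The values of miR-199a-3p and miR-199b-3p were near-equal, at 2583 and 2569 RPM in db/db and 2482 and 2466 RPM in WT libraries. They may be 1 set of reads counted in both rows, and both rows enter the fibroblast counts and sum.

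Both endothelial members, the arms of miR-126a, were negative (median -0.21, summed level 15588 to 25095 RPM in db/db and 18852 to 29569 RPM in WT libraries). Of the 6 leukocyte members 3 were negative (median -0.16, summed level 3425 to 7087 RPM in db/db and 4008 to 5766 RPM in WT libraries). Of the 5 erythroid members 4 were positive (median 0.53, summed level 35661 to 58147 RPM in db/db and 18648 to 41659 RPM in WT libraries). Of the 6 cardiomyocyte members 4 were negative (median -0.26, summed level 341273 to 443346 RPM in db/db and 372000 to 424702 RPM in WT libraries). Nearly all of the erythroid sum came from miR-486a-5p and miR-486b-5p (0.53 ± 0.14 each, SE; limma adjusted p = 0.0869), whose near-equal values may be 1 set of reads counted in both rows. The median of that list was the value of miR-486a-5p, so neither its median nor its sum is read as a change of red cells. Of the other erythroid members miR-451a stood at 0.26 ± 0.27 and miR-144-5p at -0.53 ± 0.63 (log2 difference, SE; limma adjusted p = 0.717 and 0.733). In these 4 lists 0 passed. Over all rows 0.155% passed and 52.3% were negative, so nothing is read from 0 passing in lists of 2 to 6, the smooth muscle and fibroblast lists included. No marker of any of these lists was at 0 in all 12 libraries. The part of other cell types in the level of miR-21a-5p was not tested.

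Other miRNAs known from cardiac stress, hypertrophy and fibrosis were set beside it. Of 18 members tested 11 had negative and 7 positive differences (61.1% negative, against 52.3% of all rows), with a median of -0.27. In either direction 0 passed, against 0.155% of all rows, so nothing is read from that 0. At an unadjusted p under 0.05 there were 8 of the 18, against 58 of the 646 rows, or 8.98%, and 33 of the 147 rows that averaged 100 RPM or more. The 4 most abundant were miR-133a-3p, a brake on hypertrophy (0.07 ± 0.11), miR-24-3p (-0.36 ± 0.12), miR-23a-3p, which promotes hypertrophy (-0.23 ± 0.12), and miR-29a-3p, which represses collagen genes (0.05 ± 0.13; log2 difference of db/db minus WT, SE; limma adjusted p from 0.198 to 0.885).

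The 3p arm was near the floor of detection, so its level could not be compared firmly. miR-21a-3p stood at 9.63, 26.3, 2.59, 0, 2.17 and 0 RPM in db/db libraries 1 to 6, which are 7, 19, 2, 0, 3 and 0 reads. In WT libraries 1 to 6 it stood at 0, 7.89, 0, 0, 5.19 and 2.27 RPM, which are 0, 5, 0, 0, 5 and 2 reads. It was above 0 in 4 db/db and 3 WT libraries, and db/db library 2 alone held 19 of the 31 db/db reads, against 12 reads in all WT libraries. A listed 0 is compatible with as many as 3 reads, which are worth 3.88 and 7.27 RPM in the db/db libraries at 0 and 3.74 to 5.44 RPM in the WT libraries at 0.

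The mean of miR-21a-3p was 6.77 ± 10.2 RPM in db/db and 2.56 ± 3.32 RPM in WT libraries (SD, n = 6 each). The log2 difference of db/db minus WT was 0.70 ± 1.01 (SE; limma adjusted p = 0.779). With a pseudocount of 0.1 RPM it was 1.21 and with 10 RPM 0.28. It was 0.13 ± 1.01 without db/db library 2 (limma adjusted p = 0.978). edgeR gave 1.37 (adjusted p = 0.756), and DESeq2 gave 1.46 ± 1.51 (SE) with no adjusted p. Its sign was not the same in both sets of sample numbers: it was -0.89 ± 1.39 within 4 to 6 (SE; limma adjusted p = 0.826) and 2.29 ± 1.57 within 1 to 3 (SE; limma adjusted p = 0.777). These genotype differences of miR-21a-3p did not themselves differ past the threshold (-3.18 ± 2.06, log2, SE, limma adjusted p = 0.862). By mean RPM it held place 377, between miR-467c-5p at 4.86 RPM and miR-3076-3p at 4.61 RPM, differences smaller than their spread between libraries.

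Nearly all reads of the hairpin belonged to the 5p arm. The 3p arm made up 0.370%, 0.994%, 0.0736%, 0%, 0.0428% and 0% of the reads of both arms in db/db libraries 1 to 6. In WT libraries 1 to 6 it made up 0%, 0.186%, 0%, 0%, 0.0925% and 0.0422%. In db/db library 2 the exact (Clopper-Pearson) 95% interval was 0.600 to 1.55%, above the upper bounds of all other libraries except db/db library 1, whose interval was 0.149 to 0.762%. Where no 3p read was seen, 3 reads allow a share of up to 0.0982% and 0.231% in db/db libraries and 0.0850 to 0.125% in WT libraries. The two-sided exact intervals drawn for the same libraries end higher, at 0.121% and 0.283% in db/db libraries and at 0.104 to 0.153% in WT libraries.

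The share of 3p averaged 0.247% ± 0.392 in db/db and 0.0534% ± 0.0744 in WT libraries (SD, n = 6 each), a difference of 0.193 percentage points that lay within their spread (two-sided exact permutation, p = 0.314). Without db/db library 2 the difference was 0.0440 points (exact permutation test, two-sided, p = 0.630). Over summed reads there were 31 of 17885 reads in db/db, or 0.173% (exact 95% interval 0.118 to 0.246%), and 12 of 21344 reads in WT, or 0.0562% (0.0291 to 0.0982%). These intervals cover counting error only and not the spread between libraries. The difference of 5p minus 3p on the log2(RPM + 1) scale averaged 9.78 ± 2.12 in db/db and 10.9 ± 1.36 in WT libraries (SD, n = 6 each; p = 0.279 by the same exact permutation), a difference of -1.15 that became -1.66 with a pseudocount of 0.1 RPM and -0.73 with 10 RPM.

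**Figure D3:**
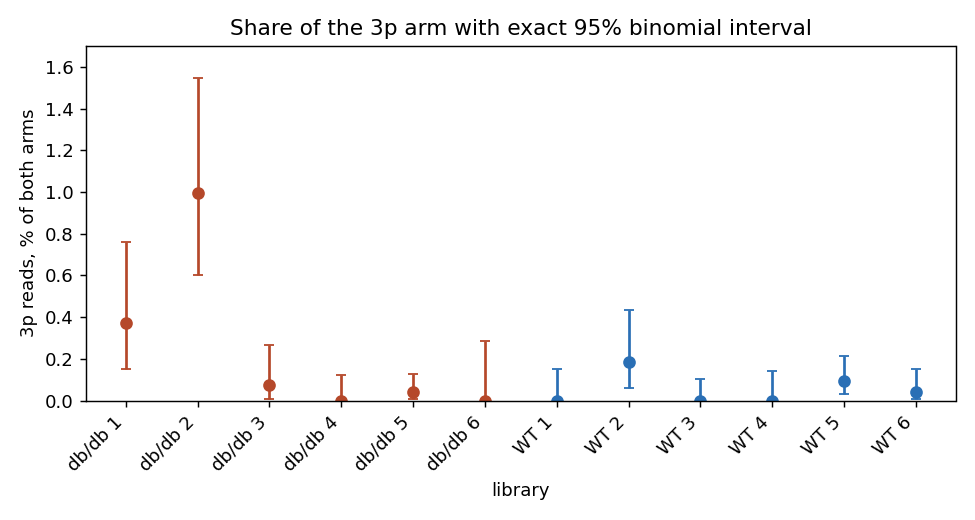
Percent of miR-21a reads that belonged to the 3p arm in each library, db/db libraries left of WT libraries, with exact 95% binomial intervals for counting error. Most libraries lie below 0.2%, and db/db libraries 1 and 2 lie at 0.370% and 0.994%.

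No joint variation of the arms was detected. Pearson's r between their log2(RPM + 1) values was -0.33 over 12 libraries (permutation p = 0.297, adjusted p = 0.419 over 5 relations) and Spearman's rho was -0.23 (permutation p = 0.465, adjusted p = 0.689). Without the 2 libraries farthest from the median of 5p, db/db libraries 1 and 2, r was 0.45, so its sign rests on those libraries. Within db/db r was -0.58 (exact permutation p = 0.222, adjusted p = 0.419) and rho -0.61 (exact p = 0.211, adjusted p = 0.528). Within WT r was 0.45 (exact permutation p = 0.342, adjusted p = 0.419) and rho 0.27 (exact p = 0.617, adjusted p = 0.689). Depth and 5p had r = 0.48 (permutation p = 0.116, adjusted p = 0.419) and rho 0.57 (permutation p = 0.0583, adjusted p = 0.292), with r = 0.30 without the 2 libraries farthest from the median depth. Depth and 3p had r = 0.26 (permutation p = 0.419, adjusted p = 0.419) and rho 0.13 (permutation p = 0.689, adjusted p = 0.689), with r = 0.17 without those 2. The part of depth in these levels was not tested. The miRNA nearest to miR-21a-3p, miR-128-3p, reached r = 0.64 and the next, miR-34a-5p, 0.47, followed by miR-365-3p, miR-30c-5p and miR-425-5p at 0.45, 0.41 and 0.41. With 5 libraries at 0 these carry little information.

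Among all hairpins the arms of miR-21a were far apart. Of 142 hairpins with both arms at a mean of at least 1 RPM, 81 had the 5p arm and 61 the 3p arm in excess. miR-21a was 9th by size of the difference, 10.4 ± 1.80 on the log2(RPM + 1) scale (SD, n = 12), where the median size was 3.69. Beside it in that order were miR-100, with 5p in excess by 10.4 ± 1.64, and miR-652, with 3p in excess, at -9.89 ± 1.32 (SD, n = 12 each). The less abundant arm of miR-21a held 0.110% of its reads, against a median of 8.91% over these hairpins and 0.556% over the 43 whose main arm averaged at least 1000 RPM. A hairpin enters the 142 only if its lesser arm is detected, so more lopsided hairpins may be missing.

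**Figure D4:**
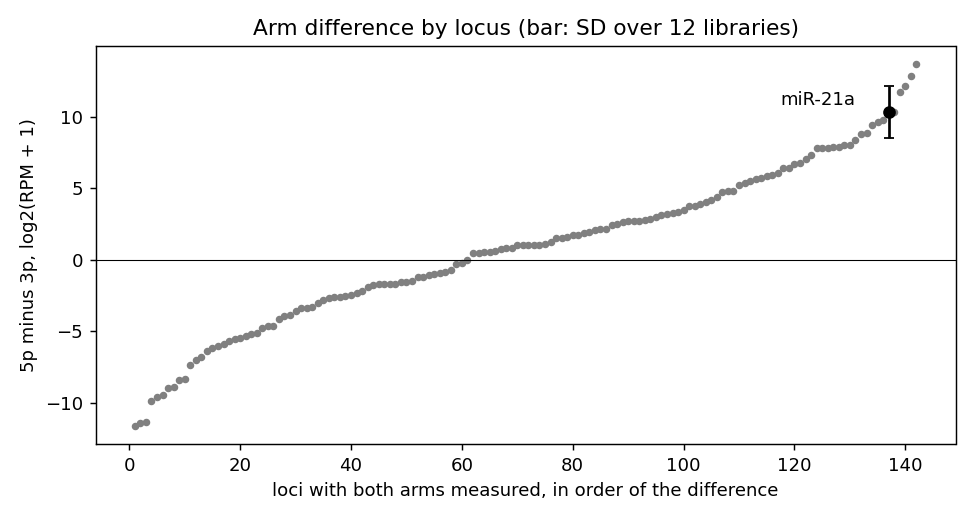
Mean difference of 5p minus 3p on the log2(RPM + 1) scale for 142 hairpins, in rising order, with miR-21a in black and its SD over 12 libraries. miR-21a, at 10.4, lies near the upper end, where 5p arms dominate.

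The libraries held 412749 reads (db/db library 6) to 1382046 reads (db/db library 5), and one read was worth 0.724 to 2.42 RPM. WT library 4 and db/db library 6 were the shallowest libraries and those richest in unnamed rows, and without this pair miR-21a-5p stood at -0.42 ± 0.16 (log2 difference of db/db minus WT, SE; limma adjusted p = 0.367). In every library the cardiomyocyte list, led by miR-133a-3p, had the highest summed level of the marker lists above. Whole heart or cytosol was not among the samples, and whether either arm was inside mitochondria was not tested.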

How the data were processed

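Small RNA from cardiac mitochondria of 6 db/db and 6 WT samples was analysed from a deposited table with a column per library. Although the authors call their values TPM, each deposited column sums to 1000000 in whole steps of 1 read for any row, which is RPM with no length term. GRCm39 is the build named in the submitters' processing notes; the aligner is not given in the sources used here. Whole reads were recovered for 100% of values within 0.01 of a read (totals 412749 to 1382046). PCR copies are not independent molecules, so intervals and limits for 0 cover only counting error.

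Genotypes were compared on log2(RPM + 1) by limma 3.58.1 in R 4.3.3, with a trend of variance on abundance, for 646 rows averaging 1 RPM or more, two-sided, Benjamini-Hochberg adjusted over all rows, called under 0.05, without a replicate block. The same test had been set for RPM or TPM. A fold on this scale understates changes of low miRNAs. Exact permutation over 924 assignments served for single values. Alternatives were edgeR 4.0.16 and DESeq2 1.42.0 on recovered reads, pseudocounts, filters, scalings, no trend, library weights, a block, sample numbers as a factor, and each library left out. The limma and edgeR code was tested on simulated data. Structure was predicted with RNAfold 2.7.2. Of 730 named rows 635 matched a RefSeq mature sequence.

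The members and lists were chosen with earlier results of these data known. Named miRNAs were, by rule, the arms, seed sharers, the neighbours in abundance and in arm difference, the 5 most correlated and the 4 most abundant of 2 lists. Chosen outside it were miR-21b, miR-92a-3p, the miR-126a arms and the erythroid members. Coordinates are not given, since the annotation is of another build.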

Additional observations from a re-analysis of the deposited data

Results flagged for a closer look

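In 10 groups of 6 values a library far from the others of its genotype was searched for, and 3 groups had such a library. Chance flags about 1 group in 20 for continuous values, a rate that cannot be applied to the 3p values, which rest on 0 to 19 reads. miR-21a-3p was 26.3 RPM in db/db library 2, and the nearest of the other db/db libraries had 9.63 RPM, a gap of 0.633 of the range. From the same 19 reads, the share of 3p in the reads of both arms was 0.994% in that library, and the nearest other db/db library had 0.370%, a gap of 0.627 of the range. The deepest library, db/db 5, had 1382046 recovered reads, and the nearest other db/db library had 773784, a gap of 0.628 of the range.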

How the results depend on the processing

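miR-21a-5p was lower in db/db in all 19 other settings and in all 12 fits that left out a library (log2 difference -0.56 to -0.37 in those, limma adjusted p 0.0276 to 0.544). It passed in 4 of these: with the replicate block (-0.45; limma adjusted p = 0.0234), with a factor for numbers 1 to 3 against 4 to 6 (-0.45; 0.0477), with edgeR and the replicate block (-0.40; edgeR adjusted p = 0.0444) and without db/db library 5 (-0.56; limma adjusted p = 0.0276). Without the variance trend miR-21a-5p did not pass (-0.45 ± 0.23, SE, limma adjusted p = 0.691, unadjusted p = 0.0765). After scaling it stood at -0.39 by median-of-ratios and at -0.40 by TMM (limma adjusted p = 0.393 and 0.379). edgeR with the block, the fits within numbers 1 to 3 or 4 to 6 and the correlations with a library left out were chosen after seeing the data. The factor for numbers 1 to 3 against 4 to 6 was planned, but with that grouping known from earlier results, so its pass is no independent check. Over the 646 rows, deviations from the genotype mean had correlations of -0.05 to 0.12 between same-numbered libraries, over 0.1 in 1 of 6 pairs. Of 6 db/db libraries 1 correlated best with its own number. Rows near the floor count there as much as abundant rows, so this cannot decide whether miR-21a-5p varied with the number. For miR-21a-5p the SE was 0.11 with the block and 0.15 without it. The numbers were not taken as pairs, since the labels do not say that they mark anything shared. With the block miR-21a-3p stood at 0.70, the arm difference at -1.15 (exact p = 0.219) and the 3p share at 0.193 points (exact p = 0.313). miR-21a-3p passed in no setting; it turned to -0.89 within numbers 4 to 6, was 1.21 and 0.28 with pseudocounts of 0.1 and 10 RPM, ran from 0.13 to 1.09 with a library left out, and the filters at 10 and 100 RPM removed it. The arm difference (-1.58 to -0.51), the 3p share (0.0440 to 0.243 points) and the correlation of the arms (-0.46 to -0.03) kept their sign with a library left out. Against 1 called row (0 higher and 1 lower), limma called 0 with a pseudocount of 0.1 or 10, no trend, quantile normalization, no filter, a filter at 10 or at 100 RPM, or without WT 4 and db/db 6, with 29 to 56 rows at an unadjusted p under 0.05. It called 2 after median-of-ratios or TMM scaling, both higher, so that the lower call was lost. It called 3 within numbers 4 to 6 (2 higher, 1 lower), 9 with the block (3 higher, 6 lower) and 10 with the number factor (4 higher, 6 lower). edgeR called 3 (2 higher, 1 lower), or 11 with the block (6 higher, 5 lower), and DESeq2 8 (6 higher, 2 lower). Leaving out a library gave 0 to 7: 0 without db/db 1, 2 or 3 or WT 2, 4, 5 or 6, 3 without db/db 4, 6 without WT 1 or WT 3 and 7 without db/db 5. The cause was not tested. The 3p arm rested on 43 reads in all.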

Other observations

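The 13 mitochondrial mRNAs of a GRCm38 annotation were searched for the word that pairs with each seed. The word for miR-21a-5p, ATAAGCT, occurred in 2 of 13 mRNAs, mt-Nd4l and mt-Nd5, which encode subunits of respiratory complex I. Its opposite strand word, AGCTTAT, occurred in 0. The word for miR-21a-3p, TGCTGTT, and its opposite strand word, AACAGCA, each occurred in 0. Of all 16384 words of 7 bases, 14.9% occurred in 2 or more of these mRNAs. The windows are shown in the direction of the mRNA, from the mitochondrial chromosome, with the matched word in capitals.
mt-Nd4l: ctccaactccATAAGCTccataccaat
mt-Nd5: agaacttaaaATAAGCTtcaaaactga
The first lies at bases 160 to 166 of an mRNA of 297 bases and the second at bases 232 to 238 of an mRNA of 1824 bases. A match describes the letters only, and neither pairing nor any effect on these mRNAs was measured here.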
